A study of Homo sapiens with 18 samples.

Results

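The transcriptome of parental Panc89 cells was compared with that of parental Panc1 cells, using the 3 replicates that the labels give for each unselected line, which are 6 of the 18 libraries of the series. Both are human pancreatic ductal adenocarcinoma (PDAC) cell lines. Panc1 was established from a primary tumour and served the study as its mesenchymal-like model, and Panc89 came from a lymph node metastasis and served as its epithelial model. Both were grown in the same medium (the study's Panc-medium) with no treatment or genetic change named in the labels, and RNA was taken from different passages. The other 12 libraries are Holoclone and Paraclone cells, single-cell-derived clones of each line kept as stem-cell-like and non-stem-cell-like populations, with 1 clone of each kind per line. They entered the fit for the estimate of the spread, and their values are given only beside those of the parental cells. Each phenotype is represented by a single line, so a difference here is one between Panc89 and Panc1, and the phenotype cannot be told apart from the tissue of origin, the donor or the culture history of the line.

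Epithelial cells are joined to each other by adherens junctions, desmosomes and tight junctions, stand on a basement membrane through integrins and hemidesmosomes, and secrete mucins and antimicrobial proteins from their apical side. Cells with a mesenchymal state have fewer of these contacts, use vimentin in place of many keratins, and release matrix and matrix-degrading enzymes. The switch between both states is governed in part by transcription factors such as ZEB1, which represses epithelial genes by binding E-boxes in their promoters, and by microRNAs of the miR-200 family and miR-205, which repress ZEB1 and ZEB2 in turn. Grainyhead-like factors, OVOL factors and the splicing regulators ESRP1 and ESRP2 maintain the epithelial side.

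The microRNAs of that loop are given first, because their host transcripts were listed at or near 0 in Panc1 and measured in Panc89. The mature sequences were taken from RefSeq on GRCh38.p14 and are written 5′ to 3′ with the seed, bases 2 to 8, in capitals. They fall into 3 seed groups.
hsa-miR-200a-3p: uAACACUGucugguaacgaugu
hsa-miR-141-3p: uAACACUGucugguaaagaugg
hsa-miR-200b-3p: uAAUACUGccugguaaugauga
hsa-miR-200c-3p: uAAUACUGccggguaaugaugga
hsa-miR-429: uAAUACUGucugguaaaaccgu
hsa-miR-205-5p: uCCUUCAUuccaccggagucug
The mature miR-200a lies at chr1:1167916-1167937, miR-200b at chr1:1167160-1167181 and miR-429 at chr1:1169055-1169076, which makes them neighbours in 1 cluster. The other cluster holds miR-200c at chr12:6963742-6963764 and miR-141 at chr12:6964155-6964176, and miR-205 lies at chr1:209432166-209432187, all on the + strand. The libraries were made from poly(A) RNA, so a value of such a gene comes from reads of its longer precursor transcript and says nothing direct about the mature form. These genes were chosen after their values were seen.

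MIR200CHG, the host transcript of the cluster on chromosome 12, had 0, 0.228 and 0 TPM (a transcript level corrected for length and scaled to the library) in Panc1 and 56.9, 28.1 and 54.5 TPM in Panc89. MIR205HG, the host of miR-205, was listed at 0 in the 3 Panc1 libraries and had 140, 84.8 and 140 TPM in Panc89. The lowest Panc89 library was replicate 2 for both, and it still lay far above Panc1. The precursor entries were lower and less even. MIR200A was listed at 0 in Panc1 and had 21.3, 6.59 and 10.2 TPM in Panc89, MIR200B was listed at 0 in Panc1 and had 28.9, 15.3 and 18.2 TPM in Panc89, and MIR429 had 0, 0 and 8.64 TPM against 30.1, 16.3 and 35.5 TPM. MIR200C reached 6.75 TPM in 1 Panc89 library only and did not pass the test (adjusted p = 0.368), so for this entry no difference was shown. MIR141, of the same cluster, was listed at 0 in Panc1 and had 3.04, 0 and 2.28 TPM in Panc89. It passed the test (adjusted p = 0.0205), although its values were low and 1 Panc89 library was at 0. Their known target ZEB1 had 18.1, 17.8 and 15.8 TPM in Panc1 and 0.0294, 0.0709 and 0.0555 TPM in Panc89. The other target, ZEB2, was under 1 TPM in all 6 libraries and did not pass the test (log2 fold change 0.18 ± 0.139 SE, adjusted p = 0.278).

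The values are log2(TPM + 1) for 40266 gene symbols. The sequencing depth cannot be read from such values, and neither can the counting error behind them. Within Panc1, Pearson correlations across genes, which are not independent replicates, lay between 0.975 and 0.987, within Panc89 between 0.985 and 0.992, and between the lines from 0.766 to 0.779. The second replicate stood furthest from its group in each line: 717 genes of Panc1 replicate 2 and 427 of Panc89 replicate 2 were over 2-fold away from the mean of the other 2 libraries, against 338 to 355 and 236 to 246 genes in the others. Leaving out any one of the 6 libraries gave 9863 to 10241 differing genes, so neither of these libraries decided the overall count. Markers of other cell types were checked as well. Of the 7 acinar, 6 islet and 7 fibroblast markers, 0 reached 1 TPM in 3 libraries, and their summed levels per library were at most 0.384, 0.217 and 1.50 TPM. INS, GCG, PTPRC and VWF, the defining genes of beta cells, alpha cells, leukocytes and endothelium, were at 0 or under 1 TPM throughout. Of 9 leukocyte markers 3 were tested, of which 1 was higher and 1 lower in Panc89, each by over 2-fold. The summed level of the list was 89.7 to 98.9 TPM in Panc1 and 13.6 to 19.0 TPM in Panc89. This sum was mostly that of CD68, a lysosomal protein that other cells make too. The median log2 level of the list went the other way, with 1.05, 0.72 and 1.26 for the Panc1 libraries against 2.37, 2.19 and 2.37 for Panc89. The 7 ductal markers were all measured, with a summed level of 2845 to 5129 TPM in Panc1 and 4916 to 5447 TPM in Panc89.

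Between the lines, 10623 genes differed, out of 16093 that reached 1 TPM in 3 or more of the 18 libraries, at an adjusted p under 0.05 (limma, moderated test on the log2 values with the Benjamini-Hochberg adjustment), which is 66.0% of the genes tested. Of these, 4421 (27.5% of those tested) were higher in Panc89 and 6202 (38.5%) were lower, and 6020 (37.4%) differed by over 2-fold. The share of calls that were higher depended on the scaling of the libraries: it was 41.6% on the deposited TPM, 48.3% when libraries were scaled to their upper quartile and 51.8% when scaled by median of ratios, while the middle log2 fold change over the genes tested moved from −0.18 to −0.04 and 0.02. In 11801 genes (73.3%) every library of one line lay above every library of the other, so the absence of overlap by itself sets no gene apart here. Because most genes differed, the counts of a gene list below are to be read against these shares. A gene that reaches 1 TPM only in one line passes the filter through that line and then has to differ, so the counts describe the lists and no test of a list was run.

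The lists differed widely in their balance. Of the 40 lists, 28 had a median log2 fold change above 0, and 32 had one under either other scaling. The highest median was that of the epithelial antimicrobial and surface antigen genes (4.79), followed by the interferon-stimulated genes (3.19), and the lowest was that of the HOX genes (−2.87). Mesenchymal transcription factors, pentose phosphate genes, oxidative phosphorylation genes and nucleotide metabolism genes had medians of −0.01, −0.02, −0.14 and −0.14, and all 4 turned positive after upper quartile and median-of-ratios scaling, so no direction is given for them. The median of the immunoglobulin-like adhesion genes was 0.12, and −0.01 with no filter on low values.

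**Figure D1:**
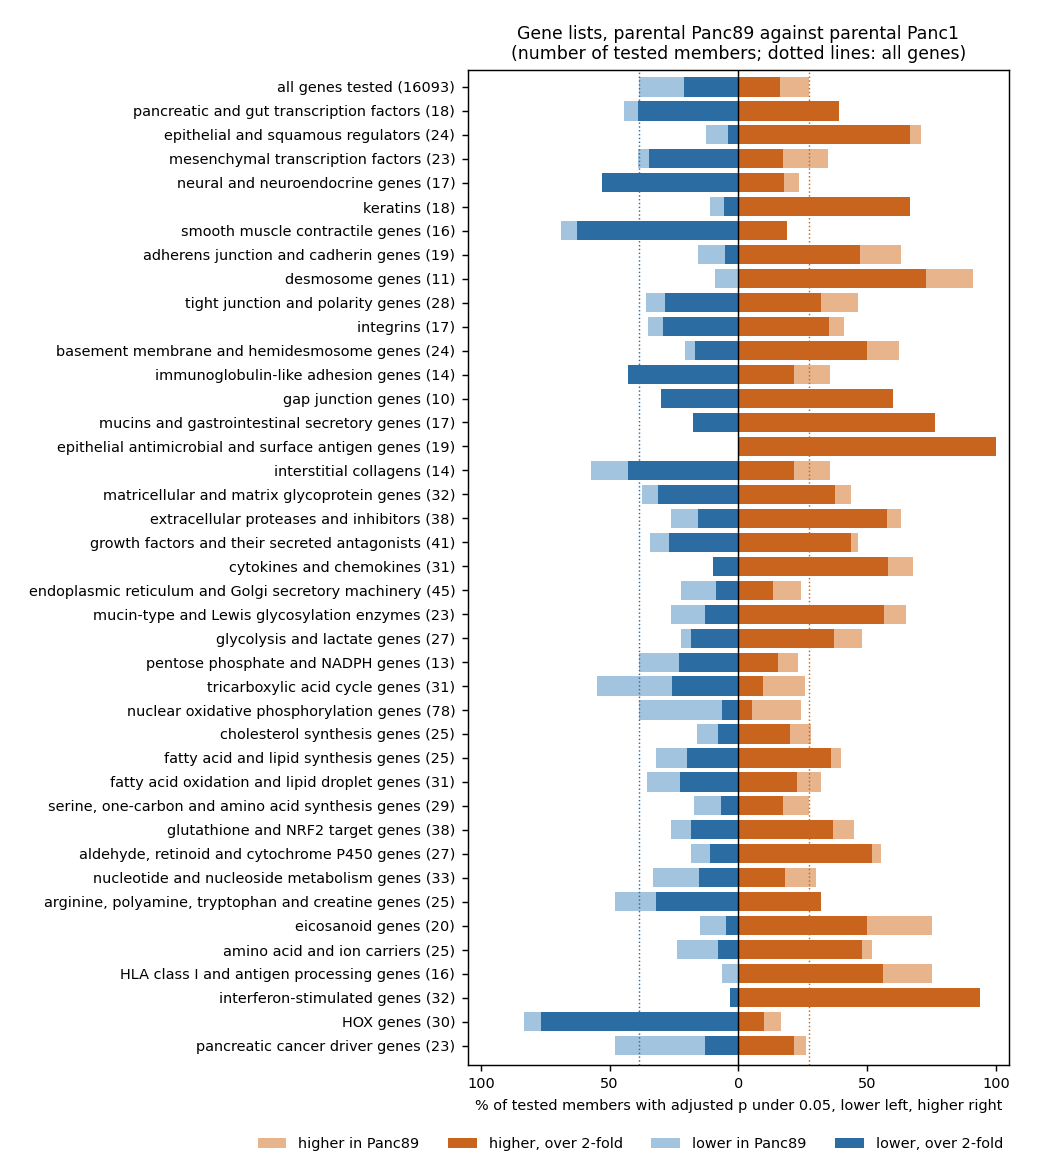
Percent of the tested members of each gene list that were higher (orange, right) or lower (blue, left) in parental Panc89 than in parental Panc1 at an adjusted p under 0.05, with differences over 2-fold in the darker shade and dotted lines at the 27.5% and 38.5% of all 16093 genes tested. The antimicrobial and surface antigen genes fill the right side and the HOX genes reach furthest to the left.

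Epithelial regulators were mostly higher in Panc89. Of the 24 epithelial and squamous regulators measured, out of 26 listed, 17 were higher in Panc89 and 3 lower, with a median log2 fold change of 2.09 against −0.18 over all genes. GRHL2, a Grainyhead-like factor that activates junction genes, had 0.391, 0.243 and 0.0541 TPM in Panc1 and 32.3, 28.5 and 34.6 TPM in Panc89 (log2 fold change 4.74 ± 0.195 SE, adjusted p = 7.91e-12). ESRP1, which directs epithelial splicing, had 2.19, 0.646 and 1.66 TPM against 135, 109 and 123 TPM. TP63, the squamous lineage factor, had at most 0.106 TPM in Panc1 and 48.9, 33.1 and 49.0 TPM in Panc89. For these 3 genes the lowest Panc89 library was above the highest Panc1 library by more than an order of magnitude. EHF and ELF3, ETS factors of simple epithelia, followed the same order, with log2 fold changes of 5.77 ± 0.175 and 5.28 ± 0.271 (SE). Among the exceptions, TFAP2A, a factor of surface ectoderm and neural crest, was lower in Panc89 (log2 fold change −0.59 ± 0.202 SE). That call was lost under both other scalings (adjusted p = 0.0725 and 0.136) and without Panc1 replicate 2 (adjusted p = 0.0606). GRHL3, the relative of GRHL2 used in epidermal differentiation, was lower as well, with 2.62, 2.62 and 3.55 TPM in Panc1 and 0.229, 0.170 and 0.241 TPM in Panc89.

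Pancreatic and gut transcription factors did not move as a block. Of 30 listed, 18 were measured, 7 were higher and 8 lower. The median was −0.22, but 0.02 without Panc89 replicate 2 and 0 with no filter on low values, so no direction is given for the list. KLF5, a zinc finger factor of gut and ductal epithelium, had 3.52, 1.45 and 3.13 TPM in Panc1 and 170, 160 and 177 TPM in Panc89 (log2 fold change 5.57 ± 0.215 SE, adjusted p = 3.66e-12), and KLF4 was higher by 3.99 ± 0.331. FOXA1 and FOXA2, related pioneer factors of endoderm, went opposite ways. FOXA1 had 0.465, 0.644 and 0.323 TPM in Panc1 and 14.2, 13.0 and 15.4 TPM in Panc89, whereas FOXA2 had 32.8, 42.3 and 30.8 TPM in Panc1 and 3.66, 5.17 and 4.17 TPM in Panc89. GATA6, which marks the classical PDAC subtype, was higher in Panc89 but low in both lines, between 0.202 and 0.730 TPM in Panc1 and between 3.25 and 3.87 TPM in Panc89, and its relative GATA4 was lower in Panc89, with 14.9, 18.7 and 18.4 against 2.55, 2.53 and 2.39 TPM. SOX9, which marks ductal cells and progenitors, was lower as well (log2 fold change −2.05 ± 0.296 SE, adjusted p = 1.71e-05). Not all of these directions were kept between the clones of the lines. FOXA2 had log2 fold changes of 0.8 in Holoclone and −3.59 in Paraclone cells, and GATA6 had 2.86 and −0.72.

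Mesenchymal transcription factors were split, with 8 of the 23 measured genes (32 listed) higher and 9 lower in Panc89. ZEB1 was lower by the amounts given above (log2 fold change −4.11 ± 0.264 SE, adjusted p = 1.60e-09), and FOXC2, a forkhead factor of mesenchyme, had 12.2, 20.4 and 13.9 TPM in Panc1 and at most 0.0171 TPM in Panc89. In the opposite direction, SNAI2, a zinc finger repressor also used by basal epithelia, had at most 0.168 TPM in Panc1 and 11.7, 7.81 and 11.7 TPM in Panc89 (log2 fold change 3.32 ± 0.172 SE, adjusted p = 1.23e-10). Its relative SNAI1 was higher in parental Panc89 by 1.24 ± 0.18, but lower in the Panc89 clones than in the Panc1 clones of the same kind (log2 fold changes −2.35 in Holoclone and −1.13 in Paraclone cells). TWIST1 was listed at 0 in all 6 libraries and PRRX1 at no more than 0.373 TPM. Thus the line used as the epithelial model had the higher level of SNAI1 and SNAI2 and the lower level of ZEB1.

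Keratins, the intermediate filaments of epithelia, were mostly higher in Panc89: 12 of the 18 measured genes (25 listed) were higher and 2 lower, with a median log2 fold change of 2.03. KRT7, a simple epithelial keratin of ducts, had 13.0, 9.75 and 12.9 TPM in Panc1 and 1555, 1894 and 1608 TPM in Panc89 (log2 fold change 7.04 ± 0.234 SE, adjusted p = 5.89e-13). KRT17, a keratin of basal and stressed epithelium, had 0, 0 and 0.335 TPM against 774, 701 and 815 TPM, and KRT6A had at most 0.130 TPM against 159, 271 and 157 TPM. Values of KRT17 and KRT6A may include reads of near-identical copies, since the quantification had to divide such reads. KRT8 and KRT18, the general pair of simple epithelia, were abundant in both lines. KRT18 had 1211, 1880 and 1298 TPM in Panc1 and 1131, 1102 and 1077 TPM in Panc89 and did not pass the test (adjusted p = 0.09). KRT8 was lower in Panc89 (log2 fold change −0.83 ± 0.26 SE, adjusted p = 0.011), a call lost without Panc1 replicate 2 (adjusted p = 0.0713) and after median-of-ratios scaling.

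Neural and contractile genes lay on the side of Panc1. Of the 17 neural and neuroendocrine genes measured (36 listed), 9 were lower in Panc89 and 4 higher, with a median of −1.04. NES, an intermediate filament of progenitor cells, had 125, 152 and 91.3 TPM in Panc1 and 0.661, 0.598 and 0.650 TPM in Panc89. SYP, a synaptic vesicle protein, had 22.9, 16.8 and 23.1 TPM against at most 0.104 TPM, while CHGA, the neuroendocrine granule protein, stayed under 0.1 TPM in both. The tubulins TUBB2B and TUBB3, typical of neurons, were lower in Panc89 with log2 fold changes of −4.47 and −3.12. Of 16 smooth muscle contractile genes measured (22 listed), 11 were lower and 3 higher, with a median of −1.50. FHL2, a LIM protein of muscle and stressed cells, had 653, 506 and 597 TPM in Panc1 and 16.2, 18.8 and 16.8 TPM in Panc89 (log2 fold change −5 ± 0.187 SE, adjusted p = 2.48e-12). The exceptions included ACTA2, smooth muscle actin, at 2.41, 1.28 and 1.96 against 8.23, 10.6 and 6.95 TPM, and CALD1, an actin regulator, at 7.37, 6.37 and 6.32 against 38.1, 36.2 and 37.3 TPM. TAGLN, another classical smooth muscle gene, was at 2.07 to 3.70 TPM in both lines and did not pass the test (adjusted p = 0.186).

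HOX genes, which carry positional identity along the body axis, separated the lines by cluster. Of 39 listed, 30 were measured, 25 were lower in Panc89 and 5 higher, and 23 of the lower genes differed by over 2-fold. All 9 measured HOXB genes and all 8 measured HOXC genes were lower in Panc89 by over 2-fold, with cluster medians of −5.61 and −3.51. HOXB7 had 93.0, 83.6 and 76.8 TPM in Panc1 and 0.580, 0.539 and 0.256 TPM in Panc89 (log2 fold change −5.88 ± 0.141 SE, adjusted p = 1.48e-14), and HOXC10 had 117, 135 and 123 against 0.989, 1.38 and 0.903 TPM. Within HOXA 2 genes were higher and 6 lower, and within HOXD 3 were higher and 2 lower, so these clusters were mixed. HOXA3 was among the higher genes, with 16.4, 19.7 and 17.7 TPM in Panc1 and 45.7, 41.8 and 44.7 TPM in Panc89. HOTAIRM1, a long non-coding RNA of the HOXA cluster, had 122, 87.3 and 91.9 TPM in Panc1 and was listed at 0 in the 3 Panc89 libraries. Transcripts of a HOX cluster overlap, and whether the quantification used strand is not given in the sources used here, so single values of neighbouring genes are uncertain.

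Among the adhesion lists, those of adherens junction, desmosome, basement membrane and gap junction genes had mostly members that were higher in Panc89. The tight junction, integrin and immunoglobulin-like lists were more balanced. Of the 19 adherens junction and cadherin genes measured (21 listed), 12 were higher and 3 lower, with a median of 0.93. CDH1, which encodes E-cadherin, had 0.721, 1.51 and 1.83 TPM in Panc1 and 73.3, 77.9 and 74.7 TPM in Panc89 (log2 fold change 5.05 ± 0.188 SE, adjusted p = 2.45e-12). CDH3, the P-cadherin of basal epithelium, had 0.975, 0.587 and 0.908 TPM against 119, 107 and 119 TPM. For both the Panc89 libraries lay within a narrow range far above Panc1. CDH2, the N-cadherin that often replaces E-cadherin in mesenchymal cells, was low in both, at 4.35, 5.28 and 4.38 TPM in Panc1 and 3.09, 2.46 and 3.75 TPM in Panc89, and did not pass the test (log2 fold change −0.48 ± 0.283 SE, adjusted p = 0.153). CTNND1, the p120 catenin that binds the cadherin tail, had 140, 111 and 126 against 127, 128 and 130 TPM, which did not pass the test either. EPCAM, an epithelial adhesion molecule, was measured in Panc1 at 12.5, 8.91 and 12.2 TPM and was higher in Panc89 at 187, 185 and 184 TPM. Lower in Panc89 was AFDN, the afadin that links nectins to actin (log2 fold change −0.92 ± 0.136 SE). NECTIN2, its partner, was lower by less, with a log2 fold change of −0.45 that was not called after median-of-ratios scaling (adjusted p = 0.0939).

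Desmosome genes were nearly uniform: of the 11 measured (15 listed), 10 were higher in Panc89, 8 of them by over 2-fold, and 1 was lower. DSP, the desmoplakin that anchors keratins, had 5.98, 7.26 and 5.54 TPM in Panc1 and 52.9, 62.7 and 57.0 TPM in Panc89 (log2 fold change 3.01 ± 0.133 SE, adjusted p = 1.76e-11). PKP2, a plakophilin of the desmosomal plaque, had at most 0.532 TPM against 28.3, 33.1 and 30.0 TPM. DSG2, the widespread desmosomal cadherin, was already present in Panc1 at 9.08, 9.76 and 8.84 TPM and reached 38.6, 40.5 and 38.7 TPM in Panc89, whereas DSG3, its basal squamous relative, was almost absent from Panc1 and had 7.59, 6.99 and 7.56 TPM in Panc89. The gene that was lower was PERP, a membrane protein of desmosomes and a p53 target, with 110, 166 and 145 TPM against 104, 96.9 and 103 TPM. Its call was lost under both other scalings (adjusted p = 0.167 and 0.345) and when any one Panc1 library other than the first, or any Panc89 library, was left out.

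**Figure D2:**
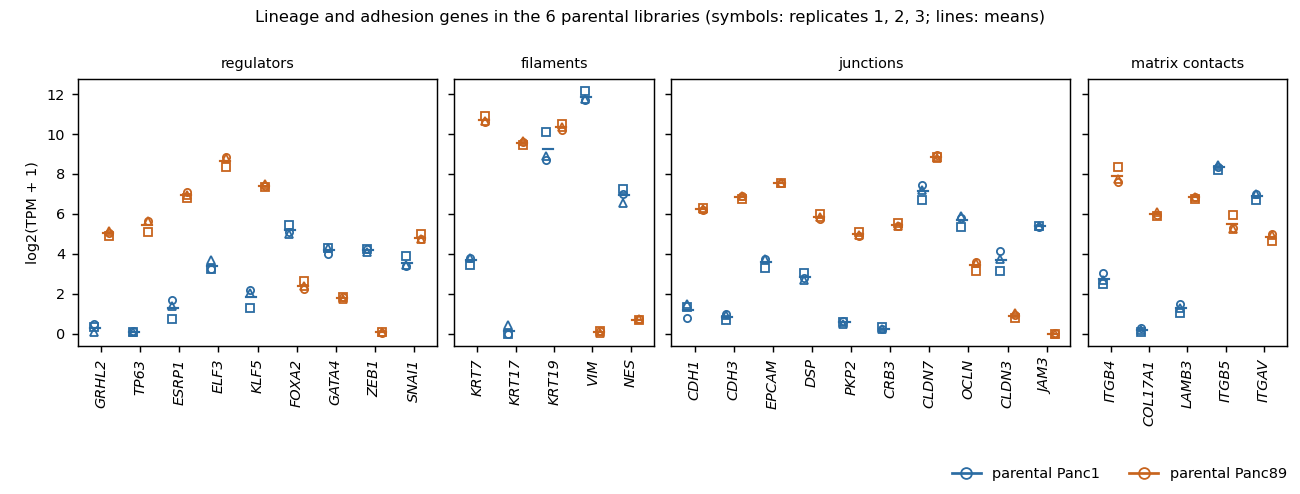
Levels of named lineage and adhesion genes in each library, as log2(TPM + 1), for the 3 Panc1 and the 3 Panc89 parental replicates, with a symbol for each replicate number and a line at the mean. GRHL2, TP63, CDH1 and DSP lie higher in Panc89, FOXA2, ZEB1, OCLN and ITGB5 lie higher in Panc1, and KRT19 is high in both.

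Tight junction and polarity genes went both ways, with 13 of the 28 measured genes (31 listed) higher, 10 lower and a median of 0.37. MAL2, needed for apical transport, had at most 0.0936 TPM in Panc1 and 280, 269 and 278 TPM in Panc89, and CRB3, a Crumbs protein of the apical membrane, had 0.159, 0.264 and 0.161 TPM against 41.2, 46.0 and 40.3 TPM. The sealing claudin CLDN7 was higher in Panc89 by 1.75 ± 0.251 on the log2 scale. In contrast, OCLN, the occludin of the tight junction strand, had 55.0, 40.2 and 58.2 TPM in Panc1 and 11, 7.95 and 10.8 TPM in Panc89 (log2 fold change −2.25 ± 0.183 SE, adjusted p = 2.66e-08). CLDN3, another sealing claudin, was also higher in Panc1, with 16.9, 7.77 and 12.2 against 0.898, 0.701 and 1.04 TPM, and TJP1, the ZO-1 scaffold, had 53.2, 37.7 and 51.5 against 24.8, 18.7 and 23.9 TPM. JAM3, a junctional immunoglobulin protein, had 40.1, 41.2 and 41.4 TPM in Panc1 and at most 0.00679 TPM in Panc89. Panc1 therefore held measurable transcripts of several tight junction components while CDH1 was near 1 TPM. CLDN4 passed the test with a log2 fold change of 0.84 ± 0.312, a call lost without Panc1 replicate 2 (adjusted p = 0.131) and without Panc89 replicate 1 or 3. Between the clones of the lines, OCLN kept its direction in Holoclone cells (log2 fold change −1.59) but not in Paraclone cells (0.65).

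The start regions of 4 of these junction genes are shown because the genes moved in opposite directions and E-boxes of the letters CACCTG, or CAGGTG on the other strand, are the kind of site that ZEB1 and SNAI factors bind. Each is the stretch of 250 bases before the gene's start in RefSeq on GRCh38.p14, written 5′ to 3′ on the strand of the gene, with the E-boxes in capitals. CRB3 lies at chr19:6464021-6464270 (+) and DSG3 at chr18:31447491-31447740 (+), both higher in Panc89. CLDN3 lies at chr7:73770271-73770520 (−) and OCLN at chr5:69492297-69492546 (+), both lower in Panc89.
CRB3: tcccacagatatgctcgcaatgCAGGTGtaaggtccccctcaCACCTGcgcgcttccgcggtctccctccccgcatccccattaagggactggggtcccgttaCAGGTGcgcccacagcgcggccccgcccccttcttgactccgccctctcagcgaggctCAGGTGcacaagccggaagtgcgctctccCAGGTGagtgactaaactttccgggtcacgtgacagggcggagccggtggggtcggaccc
DSG3: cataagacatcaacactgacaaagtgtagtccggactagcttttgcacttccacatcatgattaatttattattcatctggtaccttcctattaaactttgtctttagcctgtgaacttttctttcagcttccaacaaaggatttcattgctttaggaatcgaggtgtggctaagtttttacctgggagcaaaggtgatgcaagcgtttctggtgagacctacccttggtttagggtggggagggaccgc
CLDN3: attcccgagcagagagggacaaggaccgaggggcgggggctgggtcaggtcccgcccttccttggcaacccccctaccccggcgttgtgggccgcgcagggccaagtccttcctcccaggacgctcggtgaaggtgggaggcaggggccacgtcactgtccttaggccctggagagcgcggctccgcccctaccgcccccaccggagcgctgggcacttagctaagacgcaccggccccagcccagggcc
OCLN: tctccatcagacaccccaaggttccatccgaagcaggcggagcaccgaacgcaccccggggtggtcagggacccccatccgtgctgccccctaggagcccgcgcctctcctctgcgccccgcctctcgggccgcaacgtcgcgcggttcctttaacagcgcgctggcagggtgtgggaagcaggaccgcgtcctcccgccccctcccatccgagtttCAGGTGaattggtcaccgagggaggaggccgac
The CRB3 stretch holds 5 E-boxes, at 228, 208, 147, 89 and 60 bases before the start, the OCLN stretch holds 1 at 33 bases before it, and the DSG3 stretch holds none. CLDN3 has 1 that lies 36 bases after the start and so outside the bases printed. Of all 27305 windows of 300 bases around RefSeq gene starts (250 before and 50 after), 20.6% held such an E-box, searched on both strands. The share was 30.0% (3 of 10) for the adherens junction list, 40.0% (4 of 10) for the desmosome list and 33.3% (7 of 21) for the tight junction list. The Grainyhead motif AACCGGTT was found in 0.117% of all windows and in 0 windows of these 3 lists. A match of letters is no evidence of binding, and E-boxes occurred both beside a gene that was higher and beside one that was lower in Panc89.

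Cell-matrix adhesion differed by the integrin pair. Of 17 integrins measured (20 listed), 7 were higher and 6 lower in Panc89, with a median of 0.31. ITGB4, the hemidesmosomal integrin, had 7.28, 4.57 and 5.46 TPM in Panc1 and 196, 320 and 214 TPM in Panc89 (log2 fold change 5.16 ± 0.313 SE, adjusted p = 8.07e-10), and ITGB6, an epithelial integrin that activates TGF-beta, had at most 0.1 TPM against 21.2, 21.9 and 21.7 TPM. The vitronectin-binding pair ITGAV and ITGB5 was lower: ITGAV had 127, 102 and 126 against 30.9, 24.3 and 29.5 TPM, and ITGB5 had 326, 293 and 350 against 37.7, 61.8 and 36.4 TPM. The fibronectin receptor chain ITGA5 overlapped between the lines, with 44.3, 55.2 and 48.6 against 43.0, 53.0 and 42.4 TPM. Of 24 basement membrane and hemidesmosome genes measured (26 listed), 15 were higher and 5 lower, with a median of 1.16. LAMA3 and LAMB3, which encode chains of the laminin that hemidesmosomes hold, were higher in Panc89, with log2 fold changes of 4.47 for LAMA3 and 5.55 for LAMB3, and so was the hemidesmosomal collagen COL17A1 (at most 0.206 TPM against 60.1, 59.7 and 67.5 TPM). LAMC3 and NID1, parts of other basement membranes, were lower. ITGA6, the partner of ITGB4, was high in both lines and its small difference (0.41 ± 0.141) was not called without Panc1 replicate 3 (adjusted p = 0.0539) or Panc89 replicate 2.

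Among 14 immunoglobulin-like adhesion genes measured (21 listed), 5 were higher and 6 lower. L1CAM, a neural adhesion molecule, had 178, 156 and 164 TPM in Panc1 and 25.3, 34.3 and 25.5 TPM in Panc89, and THY1, a mesenchymal surface antigen, had 12.4, 11.5 and 10.2 TPM against at most 0.00847 TPM. CADM1 was lower in parental Panc89 (log2 fold change −1.18 ± 0.235 SE) and in Paraclone cells (−4.17) but higher in Holoclone cells of Panc89 (4.09). PECAM1, a member of the same superfamily best known from endothelium, had 0.00918, 0.126 and 0.0156 TPM in Panc1 and 64.7, 53.2 and 62.5 TPM in Panc89. Of 7 endothelial markers, 3 were tested, and 2 of them were higher in Panc89 (PECAM1, and CDH5 at 4.28, 1.99 and 5.07 TPM) while ESAM was lower. The defining markers VWF and KDR were at most 0.136 and 0.0539 TPM, and the summed level of the list was 1.77 to 3.27 TPM in Panc1 and 55.9 to 69.8 TPM in Panc89, nearly all of it PECAM1. Among 10 gap junction genes measured (13 listed), 6 were higher and 3 lower. The connexins of stratified epithelium GJB2 and GJB6 were higher, GJB5 was listed at 0 in Panc1 and had 9.88, 12.4 and 11.8 TPM in Panc89, and GJA3 and GJC1 were lower.

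Secreted products of mucosal surfaces were higher in Panc89. All 19 measured genes of the epithelial antimicrobial and surface antigen list (25 listed) were higher in Panc89, against 27.5% of all genes tested, with a median log2 fold change of 4.79. The median log2 level of these genes was 0.13 to 0.26 in the Panc1 libraries, near the floor. Members that passed the filter only through Panc89 cells had to come out higher, so the count describes the list and tests nothing. SLPI, a secreted protease inhibitor of mucosal surfaces, was listed at 0 in the 3 Panc1 libraries and had 676, 430 and 648 TPM in Panc89. LCN2, an iron-sequestering lipocalin, had 2.50, 0.225 and 1.89 TPM against 1753, 360 and 1047 TPM, and C3, the central complement component, had 0.426, 0.408 and 0.465 against 518, 346 and 477 TPM. Replicate 2 was the lowest Panc89 library for these 3 genes, and for LCN2 it was still far above the highest Panc1 library. CEACAM6, a surface adhesion antigen whose reads may be shared with other CEACAM genes, had at most 0.186 TPM in Panc1 and 17.5, 30.4 and 20.7 TPM in Panc89. S100A9, a calcium-binding subunit of calprotectin, was listed at 0 in Panc1 and had 423, 333 and 377 TPM in Panc89.

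Mucins and gastrointestinal secretory genes were higher in 13 and lower in 3 of the 17 measured (25 listed), with a median of 2.26. MUC1, a transmembrane mucin of ducts, had 23.3, 34.5 and 33.6 TPM in Panc1 and 82.4, 55.3 and 90.7 TPM in Panc89. MUC16, the CA-125 antigen, had at most 0.187 TPM against 14.5, 12.0 and 15.0 TPM, and MUC20 had at most 0.187 TPM against 67.9, 32.1 and 63.6 TPM. The order was reversed for MUC3A, an intestinal mucin, with 23.2, 16.5 and 25.4 TPM in Panc1 and 2.77, 1.66 and 2.33 TPM in Panc89. AGR2, a disulfide isomerase for mucin folding, overlapped between the lines at 104, 201 and 158 against 146, 66.9 and 157 TPM and did not pass the test (adjusted p = 0.493). The enzymes that build mucin-type and Lewis glycans went with the mucins: 15 of 23 measured (27 listed) were higher and 6 lower, with a median of 1.28. GALNT3, which starts O-glycan chains, had at most 0.0923 TPM in Panc1 and 38.4, 30.5 and 33.7 TPM in Panc89 (log2 fold change 5.07 ± 0.148 SE, adjusted p = 1.21e-13), and FUT3, the Lewis fucosyltransferase, had at most 0.253 TPM against 51.1, 47.1 and 51.8 TPM. The widely expressed relatives GALNT1 and GALNT2, which start the same chains, were lower in Panc89, with 163, 196 and 168 against 15.3, 15.2 and 16.8 TPM for GALNT1. The general secretory machinery of endoplasmic reticulum and Golgi was balanced, with 11 of 45 genes higher, 10 lower and a median of 0.02. Its chaperone HSPA5 varied within Panc1 (1231, 375 and 1315 TPM) more than between the lines (834, 751 and 758 TPM in Panc89).

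Extracellular proteases and their inhibitors were mostly higher in Panc89, with exceptions. Of 38 measured (42 listed), 24 were higher and 10 lower in Panc89, with a median of 2.03. Higher were the membrane-anchored serine proteases ST14, which encodes matriptase, with 0.473, 0.668 and 0.448 against 132, 143 and 137 TPM, and PRSS8, its partner prostasin, with at most 0.0501 against 81.9, 79.9 and 85.8 TPM. The secreted kallikrein KLK10 had at most 0.331 TPM in Panc1 and 101, 151 and 122 TPM in Panc89. PLAU, the urokinase activator, had 394, 350 and 369 TPM in Panc1 and 4.24, 7.15 and 4.41 TPM in Panc89 (log2 fold change −5.92 ± 0.326 SE, adjusted p = 2.48e-10). MMP2, a gelatinase, was lower in Panc89 as well, with 95.4, 106 and 105 against 1.50, 1.57 and 1.35 TPM. MMP14, the membrane protease that activates MMP2, did not pass the test (53.9, 46.5 and 58.2 against 70.7, 74.4 and 83.7 TPM, adjusted p = 0.106), although the libraries did not overlap.

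Matrix components themselves were mixed in direction. Of 14 interstitial collagens measured (19 listed), 5 were higher and 8 lower, with a median of −0.88. COL5A2, a fibril-regulating collagen, had 55.8, 45.4 and 56.1 TPM in Panc1 and 1.06, 1.24 and 1.21 TPM in Panc89, and COL11A1 had 15.7, 21.5 and 15.2 TPM against at most 0.0483 TPM. COL1A1, the main fibrillar collagen, was somewhat higher in Panc89, with 11.8, 14.3 and 12.6 against 26.0, 20.3 and 24.9 TPM. Of 32 matricellular and matrix glycoprotein genes measured (42 listed), 14 were higher and 12 lower, while their summed level was 1955 to 3870 TPM in the Panc1 and 492 to 563 TPM in the Panc89 libraries. SPARC, a collagen-binding matricellular protein, had 984, 608 and 1072 TPM in Panc1 and 0.224, 0.0334 and 0.469 TPM in Panc89 (log2 fold change −9.46 ± 0.2 SE, adjusted p = 3.77e-15). FN1, which encodes fibronectin, was low in both and higher in Panc89, at 0.338, 0.0445 and 0.257 against 4.32, 2.74 and 3.72 TPM. LOX, the collagen cross-linking oxidase, was higher in Panc89 (0.813, 0.343 and 1.17 against 27.2, 14.0 and 27.2 TPM), and LTBP2, a TGF-beta binding matrix protein, was lower (55.9, 61.3 and 41.1 against 4.24, 3.63 and 4.39 TPM). CCN2, a matricellular target of YAP, varied from 101 to 656 TPM within Panc1 and overlapped with the 56.5 to 109 TPM of Panc89, though it passed the test (log2 fold change −1.87 ± 0.538 SE, adjusted p = 0.00626).

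Growth factors were mixed in direction, and cytokines were mostly higher in Panc89. Of 41 growth factors and secreted antagonists measured (50 listed), 19 were higher and 14 lower, with a median of 0.25. AREG, EREG and TGFA, which encode ligands of the EGF receptor, were higher in Panc89. AREG had 2.27, 0.688 and 4.68 TPM in Panc1 and 337, 344 and 311 TPM in Panc89, EREG had 2.71, 1.08 and 4.07 against 78.0, 79.1 and 71.2 TPM, and TGFA had at most 0.556 against 35.7, 44.5 and 35.5 TPM. DKK3, a secreted protein of the Dickkopf family, had 91.1, 87.8 and 91.0 TPM in Panc1 and at most 0.00228 TPM in Panc89, and WNT5B, a non-canonical WNT ligand, had 38.0, 57.9 and 47.6 TPM against at most 0.0275 TPM. TGFB2, a TGF-beta ligand, overlapped between the lines (adjusted p = 0.915). Of 31 cytokines and chemokines measured (37 listed), 21 were higher and 3 lower, with a median of 2.05. IL1A, an alarmin of epithelia, had at most 0.0683 TPM against 154, 153 and 141 TPM (log2 fold change 7.2 ± 0.257 SE, adjusted p = 1.43e-12). CXCL8, the neutrophil chemokine, had 1.78, 0.534 and 3.48 TPM in Panc1 and 86.3, 23.6 and 78.1 TPM in Panc89, with replicate 2 again lowest in both lines. The 3 lower genes included CX3CL1 (123, 42.8 and 114 against 0.880, 0.480 and 0.964 TPM) and the monocyte chemokine CCL2 (37.6, 19.4 and 30.3 TPM against at most 0.209 TPM).

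Most metabolic lists had medians between −0.44 and 0.65, with opposite members inside them. Of 27 glycolysis and lactate genes, 13 were higher and 6 lower in Panc89, with a median of 0.37. Hexokinases, which catalyse the first step, differed by isoform. SLC2A3, a glucose carrier, had 1.24, 1.17 and 1.85 TPM in Panc1 and 24.2, 34.2 and 19.8 TPM in Panc89, HK2 had 9.12, 5.23 and 7.0 against 19.7, 17.7 and 19.6 TPM, and HK1 had 69.8, 76.4 and 68.7 against 25.1, 24.5 and 24.6 TPM. PGAM1, a later step, was lower in Panc89 (log2 fold change −1.47 ± 0.299 SE), PKM, the last kinase, overlapped (938, 1390 and 994 against 1093, 1158 and 1107 TPM), and LDHB, the heart-type lactate dehydrogenase subunit, had 538, 624 and 527 against 1252, 1322 and 1251 TPM. LDHA, the other subunit, had 782, 1572 and 925 against 532, 724 and 528 TPM and did not pass the test (adjusted p = 0.0519). TKT, in the non-oxidative arm of the pentose phosphate pathway, was higher in Panc89 (192, 291 and 216 against 482, 663 and 477 TPM).

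Of 31 tricarboxylic acid cycle genes, 17 were lower and 8 higher in Panc89. The median of −0.44 kept its sign under both other scalings. IDH2, the mitochondrial NADP-linked isocitrate dehydrogenase, had 108, 158 and 126 TPM in Panc1 and 23.2, 25.6 and 26.0 TPM in Panc89, and IDH1, its cytosolic counterpart, had 196, 115 and 156 against 399, 357 and 379 TPM. Higher in Panc89 were PC, the pyruvate carboxylase that refills the cycle (9.21, 9.20 and 7.27 against 29.1, 37.6 and 34.5 TPM), and SUCLG2, the GTP-linked succinyl-CoA ligase subunit (29.8, 30.7 and 30.2 against 103, 104 and 104 TPM). NNT, the inner membrane transhydrogenase that makes mitochondrial NADPH, had 33.3, 40.4 and 34.9 TPM in Panc1 and 0.0292, 0 and 0.0611 TPM in Panc89 (log2 fold change −5.17 ± 0.13 SE, adjusted p = 2.34e-14). The 7 genes tested within 500 kb of NNT, itself included, had a median of 0.05, so its neighbours were not low as a group. Of 78 nuclear oxidative phosphorylation genes measured (80 listed), 30 were lower and 19 higher, and after median-of-ratios scaling 21 were lower and 28 higher. NDUFB8 of complex I was lower (372, 362 and 338 against 103, 148 and 113 TPM) and NDUFA9 of the same complex higher (77.9, 77.8 and 81.9 against 183, 186 and 183 TPM).

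Lipid genes went both ways within each list. Of 25 fatty acid and lipid synthesis genes measured (26 listed), 10 were higher and 8 lower, with a median of 0.37. ACACA, the acetyl-CoA carboxylase, had 26.7, 35.1 and 21.0 TPM in Panc1 and 72.1, 75.4 and 81.5 TPM in Panc89, and the elongase ELOVL6 had 6.22, 6.46 and 6.55 against 36.3, 49.1 and 41.0 TPM. The desaturases were lower in Panc89: SCD had 1521, 1680 and 1336 against 511, 419 and 507 TPM, and FADS2 had 318, 635 and 361 against 23.6, 22.0 and 26.2 TPM. FASN, the fatty acid synthase, had 142, 452 and 91.4 TPM in Panc1 and 386, 407 and 412 TPM in Panc89, and its call (log2 fold change 1.15 ± 0.432 SE, adjusted p = 0.0286) was lost in 7 of the alternatives, leaving out Panc1 replicate 3 among them (adjusted p = 0.175). Of 25 cholesterol synthesis genes, 7 were higher and 4 lower. Panc1 replicate 2 was the highest Panc1 library for HMGCS1 (45.1, 89.1 and 39.9 TPM) and FDFT1 (49.5, 114 and 43.5 TPM), so the spread within Panc1 was wide here, and the call of HMGCS1 was lost when either of the other Panc1 libraries or any Panc89 library was left out (adjusted p = 0.138 without Panc1 replicate 3). Of 31 genes of fatty acid oxidation and lipid droplets measured (36 listed), 10 were higher and 11 lower. The droplet coat gene PLIN2 had 25.6, 27.9 and 23.5 TPM in Panc1 and at most 0.116 TPM in Panc89 (log2 fold change −4.63 ± 0.147 SE, adjusted p = 3.24e-13), CPT1A, the gate of mitochondrial import, was lower with 76.9, 109 and 87.4 against 39.5, 37.8 and 39.1 TPM, and FABP5, a fatty acid binding protein, was higher.

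**Figure D3:**
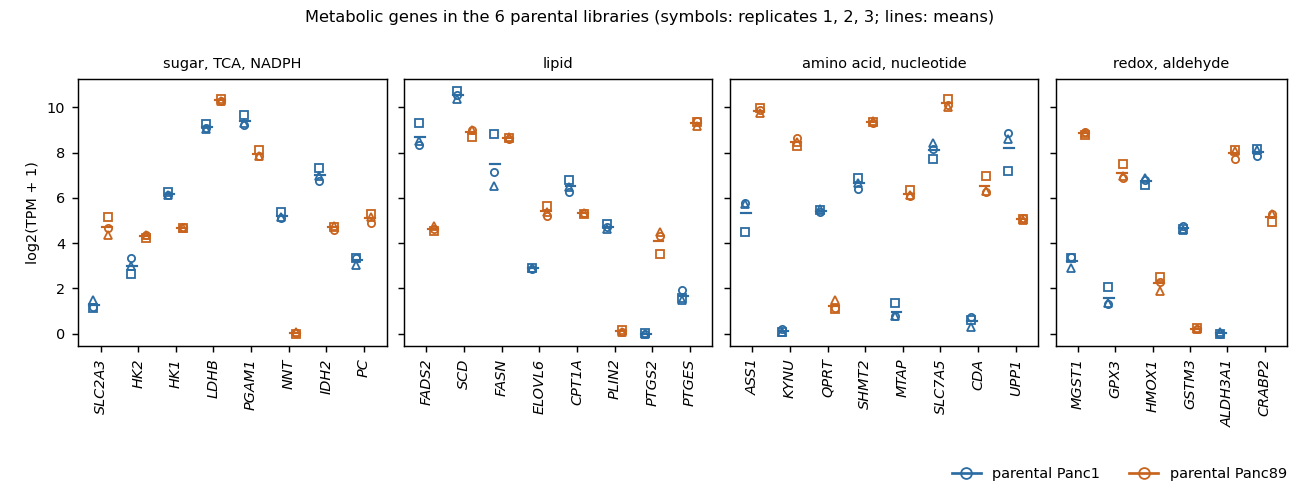
Levels of named metabolic genes in each library, as log2(TPM + 1), for the 3 Panc1 and the 3 Panc89 parental replicates, with a symbol for each replicate number and a line at the mean. NNT, PLIN2 and HMOX1 lie higher in Panc1, KYNU, MGST1 and ASS1 lie higher in Panc89, and the Panc1 values of FASN are spread on both sides of those of Panc89.

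Genes of redox defence and xenobiotic handling were again divided. Of 38 glutathione and NRF2 target genes measured (39 listed), 17 were higher and 10 lower, with a median of 0.29. MGST1, a microsomal glutathione transferase, had 9.48, 9.07 and 6.44 TPM in Panc1 and 479, 442 and 466 TPM in Panc89, and the secreted peroxidase GPX3 had 1.44, 3.22 and 1.53 against 117, 183 and 122 TPM. HMOX1, the inducible heme oxygenase, had 109, 92.5 and 118 TPM in Panc1 and 3.81, 4.70 and 2.69 TPM in Panc89 (log2 fold change −4.52 ± 0.307 SE, adjusted p = 3.09e-09). NQO1, a standard NRF2 target, differed little (329, 256 and 294 against 165, 212 and 172 TPM), and its call (adjusted p = 0.0472) was lost in most alternatives, the replicate block included (adjusted p = 0.0513). Of 27 aldehyde, retinoid and cytochrome P450 genes measured (33 listed), 15 were higher and 5 lower, with a median of 1.11. ALDH1A3, the retinal dehydrogenase often used as a stem cell marker, had 67.9, 74.1 and 62.0 against 58.8, 102 and 62.1 TPM and did not pass the test (adjusted p = 0.813), while ALDH3A1 had at most 0.0511 TPM in Panc1 and 210, 282 and 267 TPM in Panc89. CRABP2, a retinoic acid carrier, was lower in Panc89, with 227, 284 and 274 against 37.6, 29.3 and 37.8 TPM.

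Amino acid and nucleotide genes included several with known roles in drug or nutrient dependence. ASS1, the argininosuccinate synthase that lets cells make arginine, had 54.3, 21.5 and 52.6 TPM in Panc1 and 939, 1003 and 856 TPM in Panc89 (log2 fold change 4.52 ± 0.525 SE, adjusted p = 1.61e-06). KYNU, a kynureninase of tryptophan breakdown, had at most 0.147 TPM against 394, 314 and 351 TPM, and QPRT, which uses the product of that route for NAD, had 40.2, 43.1 and 44.2 against 1.21, 1.11 and 1.79 TPM. Over the arginine, polyamine, tryptophan and creatine list, 8 of 25 measured genes (29 listed) were higher and 12 lower, so these examples do not describe the list. Of 29 serine, one-carbon and amino acid synthesis genes, 8 were higher and 5 lower. PHGDH, the first step of serine synthesis, overlapped (477, 373 and 480 against 374, 494 and 362 TPM), whereas the mitochondrial SHMT2 had 82.0, 116 and 100 against 638, 660 and 669 TPM. SLC7A5, a carrier of large neutral amino acids, had 285, 210 and 341 against 1109, 1328 and 1048 TPM, and among 25 carriers measured (33 listed) 13 were higher and 6 lower. CDA, the deaminase that inactivates gemcitabine, had at most 0.651 TPM in Panc1 and 77.0, 124 and 77.2 TPM in Panc89, the equilibrative nucleoside carrier SLC29A1 had 121, 203 and 120 against 27.5, 25.2 and 26.4 TPM, and DCK, which activates the drug, did not pass the test (adjusted p = 0.563). In the study's own assay, gemcitabine reduced cell numbers more in the Panc89 than in the Panc1 variants. A relation of these transcripts to that response was not tested. Of 33 nucleotide metabolism genes, 10 were higher and 11 lower. Eicosanoid genes were mostly higher, 15 of 20 measured (24 listed) with 3 lower and a median of 1.16. PTGS2, the inducible cyclooxygenase, had at most 0.00762 TPM against 18.9, 10.5 and 21.3 TPM, and PTGES, the terminal prostaglandin E synthase, had 2.82, 1.99 and 1.78 against 666, 648 and 583 TPM.

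Interferon-stimulated genes, which are switched on downstream of interferon receptors, were higher in Panc89 almost throughout. Of the 32 genes, 30 were higher, all by over 2-fold, 1 was lower, and the median log2 fold change was 3.19. ISG15, a ubiquitin-like modifier, had 160, 96.4 and 111 TPM in Panc1 and 1983, 1425 and 1910 TPM in Panc89. IFI44L had at most 0.0958 TPM against 265, 130 and 211 TPM, and MX1, an antiviral GTPase, had 4.34, 1.98 and 2.61 against 564, 275 and 546 TPM (log2 fold change 6.83 ± 0.577 SE, adjusted p = 4.14e-08). Among the 3 Panc89 libraries, replicate 2 was the lowest for all 32 genes, and without it 30 genes were still higher and 1 lower, with a median of 3.54. The gene that was lower was IFITM2, a membrane protein that blocks virus entry, with 486, 399 and 483 against 69.8, 38.5 and 56.9 TPM. Its neighbour IFITM3 had 2394, 2116 and 2390 against 2061, 1396 and 1884 TPM and did not pass the test (adjusted p = 0.0699), and IFITM1 was higher in Panc89. These 3 genes are near-identical in parts, so the division of reads among them is uncertain. Of 16 HLA class I and antigen processing genes, 12 were higher and 1 lower, with a median of 1.1. HLA-B, an antigen-presenting heavy chain, had 45.3, 24.6 and 32.3 TPM in Panc1 and 582, 274 and 494 TPM in Panc89, whereas its light chain B2M overlapped at 1320, 1108 and 1307 against 1551, 1001 and 1359 TPM. HLA genes are highly variable between people, so quantification against a single reference can favour one line over the other. ERAP1, a peptide-trimming enzyme, was the gene that was lower in parental Panc89. Between Holoclone cells of the lines, 12 genes of the HLA list were higher in Panc89 and 0 lower, with a median of 1.27. Between Paraclone cells 3 were higher and 5 lower, with a median of −0.32, so the direction of this list was not kept there.

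**Figure D4:**
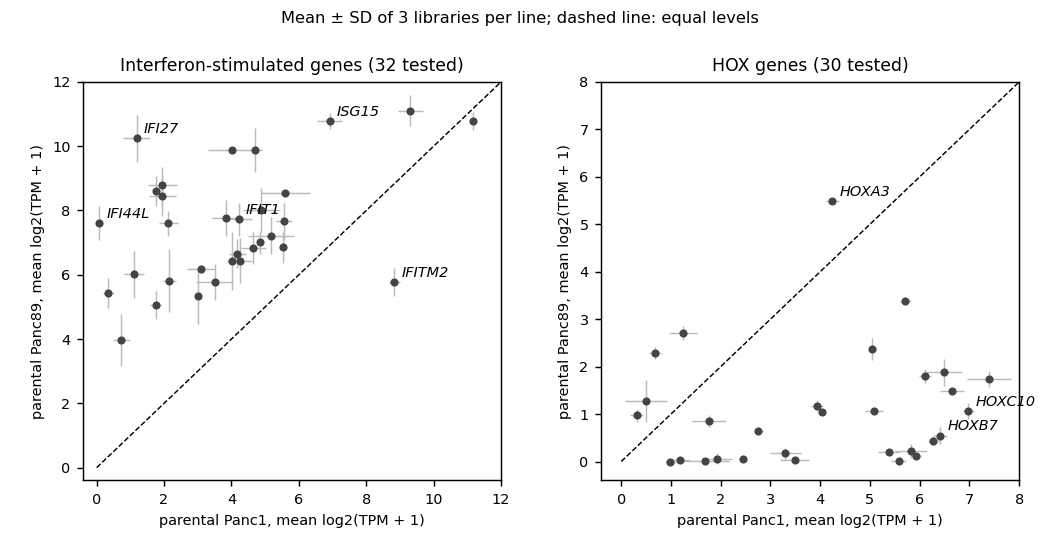
Mean log2(TPM + 1) of the 32 interferon-stimulated genes and the 30 HOX genes tested, in parental Panc1 on the horizontal and parental Panc89 on the vertical axis, with the SD of 3 libraries as bars and a dashed line of equal levels. The interferon-stimulated genes lie above the line except IFITM2 and IFITM3, and 25 HOX genes lie below it.

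Among 23 genes often altered in pancreatic cancer, 6 were higher and 11 lower in Panc89. CDKN2A, which encodes the cell cycle inhibitors p16 and ARF, was listed at 0 in the 3 parental Panc1 libraries and in the 6 libraries of the Panc1 clones, and had 279, 372 and 272 TPM in Panc89. CDKN2B, which encodes p15, was likewise at 0 in all Panc1 libraries and had 158, 160 and 134 TPM in Panc89. Their neighbour MTAP, the salvage enzyme for methylthioadenosine, had 0.702, 1.53 and 0.733 TPM against 66.7, 80.0 and 68.2 TPM. On GRCh38 the genes lie on chromosome 9, MTAP from 21802636 to 21937651, CDKN2A from 21967752 to 21995301 and CDKN2B from 22002903 to 22009305. KLHL9 and DMRTA1, which lie further out and were chosen after their values were seen, differed by less. KLHL9 had 7.35, 6.12 and 6.67 against 17.4, 13.7 and 15.8 TPM, and DMRTA1 had 0.734, 0.596 and 0.523 against 1.17, 1.28 and 1.38 TPM. KLHL9 is not the gene next to MTAP, and where the low levels ended was not determined. CDKN2B-AS1, an antisense RNA that overlaps CDKN2B, had at most 0.166 TPM in Panc1 and 3.57, 2.87 and 2.72 TPM in Panc89, and reads of overlapping genes may not have been told apart. DNA was not analysed here.

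The reverse order was found for STK11, which encodes the kinase LKB1, with 70.8, 79.5 and 68.5 TPM in Panc1 and 0.0256, 0.0137 and 0.0218 TPM in Panc89 (log2 fold change −6.18 ± 0.104 SE, adjusted p = 3.27e-16). It was also lower in the Panc89 clones, with log2 fold changes of −6.39 in Holoclone and −6.44 in Paraclone cells. The 43 genes tested within 500 kb of STK11 had a median of 0.23, so the low level did not extend to them as a group. MYC, a growth-promoting factor, had 96.3, 77.1 and 98.4 TPM in Panc1 and 486, 571 and 431 TPM in Panc89. SMARCA4, the ATPase of the SWI/SNF remodeller, had 13.9, 13.3 and 11 against 62.6, 65.1 and 72.5 TPM, and ARID1A, another subunit of it, had 57.5, 51.6 and 59.7 against 22.1, 20.1 and 23.9 TPM. SMAD4 was lower by a small amount (log2 fold change −0.4 ± 0.12 SE), a call lost under both other scalings (adjusted p = 0.0849 and 0.247) and without Panc89 replicate 2 (adjusted p = 0.0505).

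Genes that were on in one line and listed at 0 in the other were more numerous in one direction. In parental Panc1, 63 genes were listed at 0 in the 3 libraries while reaching a mean of at least 10 TPM in Panc89, and 25 of these were at 0 in all 9 Panc1 libraries. In parental Panc89, 15 genes were so listed, and 4 of them were at 0 in all 9 Panc89 libraries. The Panc1 set included CALB1, a calcium buffer, with 492, 657 and 545 TPM in Panc89, and LY6D, a surface antigen of squamous cells, with 475, 642 and 547 TPM. Cancer-testis genes of the X chromosome were in it as well, such as MAGEA3 and GAGE12C, whose copies are nearly identical, so their single values are uncertain. The Panc89 set included TRIM4, a ubiquitin ligase, with 36.2, 27.5 and 34.0 TPM in Panc1, MT1A, a metallothionein with close paralogs, and PAX2, a renal developmental factor, with 27.1, 36.1 and 22.8 TPM. MAGEA3, GAGE12C and PAX2 were chosen after their values were seen. A listed 0 is not shown to be absence, because depth is unknown.

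The 10 highest and 10 lowest log2 fold changes were taken among called genes with a value above 0 in both lines and no overlap of their libraries. Among the highest, FXYD3, an ion pump regulator of epithelia, had at most 0.0979 TPM in Panc1 and 665, 612 and 672 TPM in Panc89, and S100A14, a calcium-binding protein of epithelia, had 0.234, 0.249 and 0.256 against 451, 667 and 442 TPM. The lowest log2 fold change was that of VIM, which encodes the intermediate filament vimentin, with 3295, 4549 and 3492 TPM in Panc1 and at most 0.0878 TPM in Panc89 (log2 fold change −11.78). MXRA8, a matrix remodelling receptor, had 289, 244 and 303 TPM in Panc1 and at most 0.115 TPM in Panc89. LXN, a carboxypeptidase inhibitor, had 211, 283 and 306 against 0.711, 0.436 and 1.11 TPM, and APOE, a lipid carrier, had 199, 118 and 200 against 0.530, 0.418 and 0.571 TPM.

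The difference was not spread evenly over the chromosomes. The median log2 fold change was highest for chromosomes 13 (0.5 over 281 genes), 8 (0.48 over 537) and 9 (0.42 over 644), and lowest for X (−0.81 over 509), 10 (−0.69 over 604) and 15 (−0.58 over 483), against −0.18 for all genes. On chromosome 13, 139 genes were higher and 52 lower, and on chromosome 10, 91 were higher and 360 lower. Copy numbers of the lines were not analysed here, and their part in these medians was not tested.

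The line difference was then set beside the same difference in the clones, which come from the parental lines but share no library with them. Panc89 Holoclone cells differed from Panc1 Holoclone cells in 10583 genes (65.8%) and Panc89 Paraclone cells from Panc1 Paraclone cells in 9767 genes (60.7%). In 6332 genes (39.3% of those tested) the difference was called in the same direction in parental, Holoclone and Paraclone cells, which is 59.6% of the genes called in parental cells. Of the 6020 genes called there with over 2-fold, 4473 (74.3%) were called in the same direction in both clones. The opposite direction in both clones was called for 21 genes. GRHL2, for example, was higher by 4.74 in parental, 5.12 in Holoclone and 3.44 in Paraclone cells, CDH1 by 5.05, 5.61 and 4.71, and MMP2 was lower throughout (−5.38, −5.47 and −5.12). Desmoplakin was less even, with 3.01 in parental, 1.37 in Holoclone and 5.88 in Paraclone cells for DSP.

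The parental difference departed from the mean of the 2 clone differences in 2547 genes (15.8%) by the interaction term, 903 in the positive and 1644 in the negative direction. This split also depended on scaling, with 1210 and 1166 after upper quartile scaling and 1264 and 1112 after median-of-ratios scaling. Genes with the largest terms included CP, the ferroxidase ceruloplasmin, which was higher in parental Panc89 (4.01, 2.82 and 3.66 against 55.2, 13.1 and 64.8 TPM) and lower in Panc89 Paraclone cells (log2 fold changes 3.06 and −4.83). PSCA, a surface antigen, was higher in Panc89 in every variant, but by less in Holoclone cells (log2 fold change 1.79). The keratin KRT81 was higher in parental and Paraclone cells of Panc89 and lower in its Holoclone cells (log2 fold change −0.64). Since each clone descends from 1 cell, a departure in a clone may belong to that clone alone, and this cannot be told apart from a property of its kind.

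**Figure D5:**
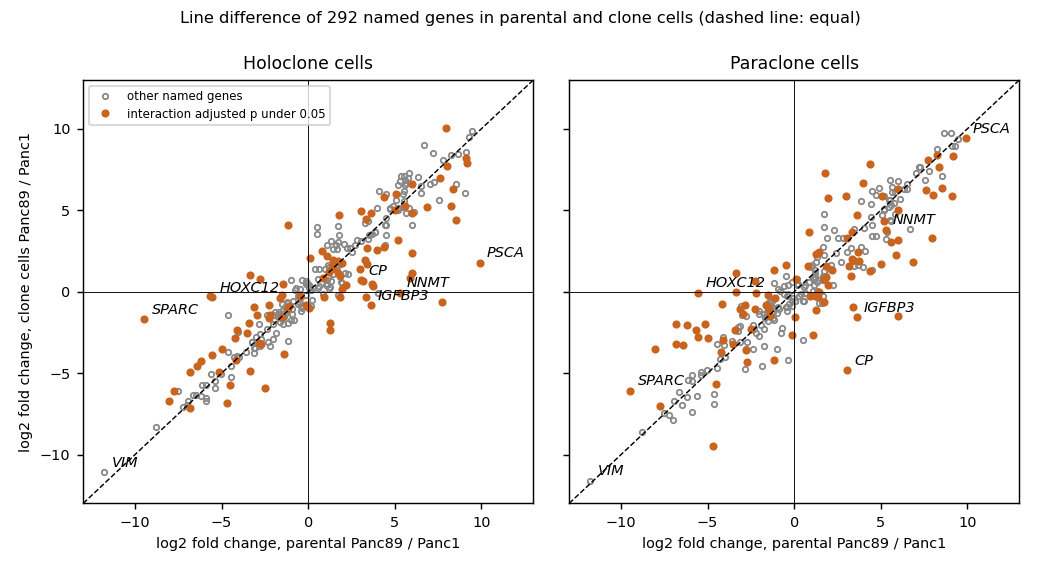
Log2 fold change of Panc89 against Panc1 in parental cells (horizontal) against the same difference in Holoclone cells and in Paraclone cells (vertical, 1 panel each), for 292 named genes tested, on the log2(TPM + 1) scale. The 97 genes whose interaction term had an adjusted p under 0.05 are filled, and SPARC and HOXC12 lie far from the dashed line of equal differences.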

How the data were processed

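RNA of 18 libraries, 3 for each of 6 groups, was analysed. The authors isolated RNA at 3 passages per cell variant, prepared stranded libraries from poly(A) RNA and sequenced them paired-end. They quantified reads with kallisto 0.46.1 against Ensembl GRCh38 and summarised genes with tximport as scaled TPM. The values the authors deposited are log2(TPM + 1) per gene symbol. They carry no counts, so depth is unknown. Whether strand was used in quantification is not given in the sources used here.

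The log2 values were fitted with limma 3.58.1 in R 4.3.3, with a mean per group and all 18 libraries sharing a mean-dependent residual spread, for the 16093 genes that reached 1 TPM in 3 or more libraries. The tests are two-sided, and p-values were adjusted over these genes with the threshold at 0.05. Fold changes on this scale understate those of genes near or under 1 TPM. Scripts were tested on simulated data first. Labels assigned every library, and the replicate numbers did not pair the libraries.

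The lines compared, the gene lists and their members were chosen with earlier results of these data known. Named are the 10 highest and 10 lowest genes by log2 fold change among those called, at 10 TPM or more in the higher line, above 0 in at least 1 library of the lower line and without overlap. From each list come the first 3 genes and the 2 highest and 2 lowest others. Marker genes, the 5 highest genes listed at 0 in each line, and the 5 highest and 5 lowest interaction terms complete the rule. ZEB2, GRHL3, KRT6A, CTNND1, TJP1, KLK10, LDHA, MX1, IFITM3, SMARCA4, the microRNA genes and the neighbours of CDKN2A were chosen after their values were seen. Gene positions are from GENCODE 44, and microRNA and promoter sequences from RefSeq.

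Alternatives were adding 0.1 in place of 1 before the logarithm, testing genes of any level, fitting the 6 parental libraries alone, a replicate block, upper quartile and median-of-ratios scaling, stricter thresholds, and leaving out each library. Some members of the lists are not reported by name here.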

Additional observations from a re-analysis of the deposited data

Results flagged for a closer look

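The line difference of parental cells departed from the mean line difference of the clones in 2547 genes by the interaction term (limma, adjusted p under 0.05), and the terms with the largest size on either side are given here, as log2 differences. Each clone kind is represented by 1 clone per line, so a departure of a clone cannot be told apart from one of its kind.

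The positive terms belonged to genes whose log2 fold change in parental cells lay above the mean of the Holoclone and Paraclone comparisons. They were CP, a ferroxidase, at 5.13, IGFBP3, a binding protein of insulin-like growth factors, at 4.79, MMP1, a collagenase, at 4.33, PSCA, a surface antigen, at 4.30, and PECAM1, an adhesion molecule of the immunoglobulin superfamily, at 4.29. Such a term can come from a single clone kind. The log2 fold change of PSCA was 9.91 in parental and 9.44 in Paraclone cells, and 1.79 in Holoclone cells. IGFBP3 had 6.37, 3.24 and 4.52 TPM in parental Panc1 and 83.0, 40.2 and 87.5 TPM in parental Panc89, and its log2 fold changes in Holoclone and Paraclone cells were −0.82 and −1.57. MMP1 had at most 0.561 TPM in parental Panc1 and 84.2, 65.3 and 118 TPM in parental Panc89. It was higher in Panc89 Holoclone cells too, by 4.82, with a log2 fold change of −1.49 in Paraclone cells.

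The negative terms were those of SPARC, a matricellular protein, at −5.58, HOXC12, a HOX gene, at −5.37, OSCAR, an immune receptor, at −4.42, CES1, a carboxylesterase, at −4.37, and IFITM1, an interferon-stimulated membrane protein, at −4.20. HOXC12 had 48.3, 50.8 and 41.5 TPM in parental Panc1 and at most 0.0210 TPM in parental Panc89, and its log2 fold changes were −0.32 in Holoclone and −0.06 in Paraclone cells. CES1 had 46.9, 50.1 and 69.9 against at most 0.162 TPM in parental cells. IFITM1 was higher in Panc89 in every variant, with log2 fold changes of 1.80 in parental, 4.73 in Holoclone and 7.27 in Paraclone cells. OSCAR varied within parental Panc1 (64.8, 17.0 and 51.4 TPM).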

How the results depend on the processing

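The 10623 genes of the parental comparison became 10632 with a pseudocount of 0.1, 11957 with no filter on low values, 11013 in a fit of the 6 libraries, 10578 with the replicate number as a block, and 10559 and 10516 under upper quartile and median-of-ratios scaling. With a change of over 2-fold required, the counts were 6020 for parental, 5996 for Holoclone and 5271 for Paraclone cells and 1093 for the interaction, and the genes listed at 0 in Panc1 and Panc89 were 19 and 4 at 50 TPM. The block gave 10555 genes in Holoclone cells, 9735 in Paraclone cells and 2411 for the interaction. Same-numbered libraries had correlations of their deviations from 0.00779 to 0.045. Leaving out 1 library gave 9863 to 10241 genes in parental, 9756 to 10868 in Holoclone and 8915 to 10118 in Paraclone cells, 1749 to 2917 for the interaction, and 28 to 30 lists with a median above 0. The genes whose sign turned had not passed the test. After upper quartile scaling the log2 fold changes were 0.06 for ITGA5, 0.05 for HSPA5, 0.1 for PGD, 0.05 for PHGDH and 0.06 for CYP1B1, and after median-of-ratios scaling 0.15, 0.13, 0.18, 0.13 and 0.14. Leaving out 1 library turned 8 of them, whose ranges were −0.7 to 0.2 for HSPA5, −0.07 to 0.21 for PKM, −0.13 to 0.16 for TGFB2, −0.23 to 0.26 for PGD, −0.23 to 0.11 for CYP1B1, −0.09 to 0.23 for B2M, −0.62 to 0.02 for AGR2 and −0.16 to 0.23 for ALDH1A3. The causes were not tested. Depth is unknown, so counting error of low values could not be separated from the spread between replicates.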
